A study of Homo sapiens with 9 samples.

Results

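RP11-561N12.1, RP11-561N12.10 and RP1-85F18.6 were 3 of the 60829 rows of a table of gene levels in human embryonic stem cells, and they were chosen by name because their levels split by clone in these same libraries. The names are those of the sequencing clones of the human genome project from which the genes were annotated, followed by a number within the clone. RP11-561N12.1 and RP11-561N12.10 were selected on their absence from the knockout libraries, and RP1-85F18.6 on its higher level there. The difference between the clones is therefore given below as a description for these 3 rows, with no test. The working name of the set called them long noncoding RNAs (lncRNAs), which the table does not bear out for RP11-561N12.1, whose type is processed pseudogene. RP11-561N12.10 and RP1-85F18.6 have the type lncRNA.

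The cells were H1, an established human embryonic stem cell line, and the sequenced total RNA had been depleted of ribosomal RNA. The control group held 4 libraries of the clone chrX-ctrl_H1, whose genotype label is WT. The knockout group held 5 libraries of the clone chrX-KO_H1, in which HERVHlin, an element of the endogenous retrovirus family HERVH on chromosome X, was knocked out. Both clones were grown in mTESR medium on vitronectin, while a treatment label calls the cells of all 9 libraries differentiated. Each group was 1 clone sampled over successive passages, which the series treats like technical replicates although the titles number them as biological. A difference between the groups therefore cannot be told apart from a difference between 1 clone and another, and p-values measure only the spread between passages. The DNA of the clones is not analysed here.

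A processed pseudogene is a copy of a messenger RNA that was reverse transcribed and inserted elsewhere in the genome, so that it lacks the introns and usually the promoter of its parent gene. It is transcribed where a promoter happens to lie nearby, and its reads are hard to separate from those of the parent and of other copies. An antisense lncRNA is transcribed from the strand opposite a coding gene and can share exon sequence, as the reverse complement, with that gene. Both kinds are usually transcribed at low levels.

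RP11-561N12.1 (ENSG00000224669.1) lies on the plus strand at chr7:64582733-64583207 in GENCODE 29 (GRCh38), where it is a processed pseudogene named AC016769.2 with 1 exon of 475 bases. No coding gene overlaps it there. The coding transcript most like it was GCSH-201, of GCSH, which encodes the H protein of the mitochondrial glycine cleavage system. Over 477 aligned positions the 2 sequences were 92.9% identical, with 31 substitutions, 1 base that GCSH-201 lacks and 2 bases that the pseudogene lacks. RP1-85F18.6 (ENSG00000232754.1) lies on the minus strand at chr22:41169190-41183144, where GENCODE 29 lists it as an antisense gene named AL035658.1. Its transcript has 357 bases in 3 exons, 82 bases at chr22:41183063-41183144, 60 bases at chr22:41169522-41169581 and 215 bases at chr22:41169190-41169404. EP300, which encodes a histone acetyltransferase, lies on the plus strand and overlaps it. RP11-561N12.10 (ENSG00000286456.1) and its position and sequence were not in the annotation used here.

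The first 300 bases of each transcript from GENCODE 29 are printed 5′ to 3′ to show how much of it another gene can also supply with reads. The stretch of RP11-561N12.1 is chr7:64582733-64583032 on the plus strand, and its 25 capitals mark 24 substitutions and 1 inserted base against GCSH-201. The stretch of RP1-85F18.6 is spliced, and its 107 capitals mark bases whose reverse complement lies in exons of EP300.
RP11-561N12.1: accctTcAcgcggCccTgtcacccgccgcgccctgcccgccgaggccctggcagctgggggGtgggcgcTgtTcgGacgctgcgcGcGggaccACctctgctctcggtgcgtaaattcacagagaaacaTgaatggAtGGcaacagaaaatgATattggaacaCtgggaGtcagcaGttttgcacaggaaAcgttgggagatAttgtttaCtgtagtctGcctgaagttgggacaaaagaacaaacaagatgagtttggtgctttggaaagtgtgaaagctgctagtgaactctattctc
RP1-85F18.6: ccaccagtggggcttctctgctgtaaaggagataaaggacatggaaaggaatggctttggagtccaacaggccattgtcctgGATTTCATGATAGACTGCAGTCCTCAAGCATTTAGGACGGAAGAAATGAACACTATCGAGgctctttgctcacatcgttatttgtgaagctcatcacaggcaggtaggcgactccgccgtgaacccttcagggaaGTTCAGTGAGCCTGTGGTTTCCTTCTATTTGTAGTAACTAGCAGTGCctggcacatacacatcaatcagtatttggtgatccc

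Runs between the capitals of RP11-561N12.1 can be long, and 123 of its 445 distinct words of 31 bases (27.6%) also occurred in transcripts of other genes. Those genes were GCSH, NDUFS1, which encodes a subunit of respiratory complex I, further processed pseudogenes, a pair of coding genes known by clone names and an antisense gene. In RP1-85F18.6 the capitals form 2 blocks. The block of 60 bases, transcript bases 83 to 142, is the whole of its second exon at chr22:41169522-41169581. The block of 47 bases, transcript bases 218 to 264, is at chr22:41169283-41169329. Of its 327 words of 31 bases, 51 (15.6%) occurred in EP300, read on either strand, and none in another gene. The sources used here do not say whether the authors' counting used the strand, so reads from these blocks cannot be assigned to RP1-85F18.6 or to EP300 with certainty.

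Reads in this text are the authors' gene counts, recovered from the normalized values, and they summed to 19838682 to 31192630 per library. Of the 3 rows that the authors marked as the knocked-out element, the means in the control clone were 698 to 2700 normalized counts and those in the knockout clone 57.5 to 1452. Control and knockout libraries did not overlap in 2 of these 3 rows, with log2 differences from -5.49 to -0.68 over the 3 and a limma adjusted p of 0.44 for the one that missed the threshold. Markers of pluripotent cells, 8 of 8 tested and 0 called, summed to 29460 to 68990 normalized counts in the control libraries and 24940 to 39170 in the knockout libraries. Fibroblast markers, 4 of 6 tested and 0 called, summed to 3229 to 5812 in the control and 2878 to 4508 in the knockout libraries. THY1, with means of 3138 and 2640, made up most of these sums, and COL3A1 and LUM were under a mean of 10. Neural ectoderm markers, 1 of 4 tested, summed to 153.8 to 176.8 and 207.9 to 314.2, and the sums of the groups did not overlap. PAX6, SOX1 and NEUROD1 were under a mean of 10, and MAP2, with means of 155.9 and 236, made up most of these sums. Mesoderm markers, 1 of 4 tested, summed to 16.26 to 34.18 in the control and 11.27 to 19.16 in the knockout libraries. Of these, HAND1, TBXT and MESP1 were under a mean of 10. Trophectoderm markers, 1 of 4 tested, summed to 107.5 to 231.6 and 110.6 to 210.8. Most of that was KRT7, with means of 172.4 and 151.2, while GATA3, CDX2 and CGA were under a mean of 10. Endoderm markers, 0 of 3 tested, summed to 1.554 to 6.375 and 0 to 3.832. No tested marker of these lists was called by limma, and the markers left out of the test could not be called. The part of these sums in the results below was not tested.

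The GCSH pseudogene RP11-561N12.1 had reads in every control library and in no knockout library. Its levels were 205.1, 233.1, 107.6 and 126.4 normalized counts in control libraries 1 to 4, from 193, 150, 118 and 140 reads. All 5 knockout libraries were at 0, from 123619979 reads in all. In normalized counts, control libraries 1 and 2 were the high ones, and the groups did not overlap. The control mean was 168 ± 60.5 normalized counts (SD, n = 4). The knockout clone was at least 296-fold lower when its 0 reads are set to 3 over its 5 libraries. That limit covers counting error in the knockout libraries only and takes the control mean as observed. Without control library 2 it was 258-fold. Per kilobase of transcript the control level was 354 ± 127 normalized counts (SD, n = 4). Lower levels here cannot be told apart from fewer cells with the transcript.

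The lncRNA RP11-561N12.10, from the same sequencing clone, followed the same split. Its levels were 123.3, 118.1, 173.2 and 176.1 normalized counts in control libraries 1 to 4, from 116, 76, 190 and 195 reads, and 0 in all 5 knockout libraries. In normalized counts, control libraries 3 and 4 were the high ones, the reverse of RP11-561N12.1. That order depends on the authors' scaling, since by read totals control library 4 is above control library 2 for both rows. The control mean was 148 ± 31.3 normalized counts (SD, n = 4), and the knockout clone was at least 260-fold lower by the same limit. Without control library 4 that limit was 243-fold. Without a transcript length no level per kilobase is given.

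The 2 RP11-561N12 rows did not keep a constant ratio to each other among the control libraries. RP11-561N12.1 divided by RP11-561N12.10 was 1.66, 1.97, 0.621 and 0.718 in control libraries 1 to 4. Their sum was more even in normalized counts, at 328.3, 351.1, 280.8 and 302.6. Unlike the ratio, the sum depends on the authors' size factors, which did not follow the read totals. In control library 4, with 19838682 reads, 1 read was 0.903 normalized counts, and in control library 1, with 23721382 reads, it was 1.06. Scaled to the read totals the sum is less even. Control library 2 had 150 and 76 reads of the 2 rows from 21767416 reads, and control library 4 had 140 and 195 from 19838682. By read totals the sum is therefore higher in control library 4 than in control library 2, the reverse of their order in normalized counts. The coefficient of variation of RP11-561N12.1 over the control libraries was 36%, where counting alone gives 8.38%, and that of RP11-561N12.10 was 21.2%, where counting alone gives 8.51%. Counting alone leaves out the variation that making and scaling separate libraries adds, which was not measured here.

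The antisense lncRNA RP1-85F18.6 was detected in all 9 libraries and was high in the knockout clone. Its levels were 41.44, 35.73, 38.29 and 35.22 normalized counts in control libraries 1 to 4, from 39, 23, 42 and 39 reads. In knockout libraries 1 to 5 they were 358.3, 361.9, 234.1, 291.5 and 288.9, from 374, 321, 201, 390 and 392 reads. Knockout library 3 was the lowest of its group and still 5.65 times the highest control library. The means were 37.7 ± 2.85 (SD, n = 4) and 307 ± 53.7 (SD, n = 5) normalized counts, an 8.15-fold higher level in the knockout clone and a log2 difference of 2.98 (SE 0.17) in the limma fit. Per kilobase of transcript these means are 106 ± 7.97 and 860 ± 150 normalized counts.

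The spread of RP1-85F18.6 cannot be compared between the clones at these read numbers. In the control clone its coefficient of variation was 7.56%, under the 17.1% that counting alone gives, so no variation between passages was detectable there at this depth. In the knockout clone it was 17.5% against 5.56% from counting.

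**Figure D1:**
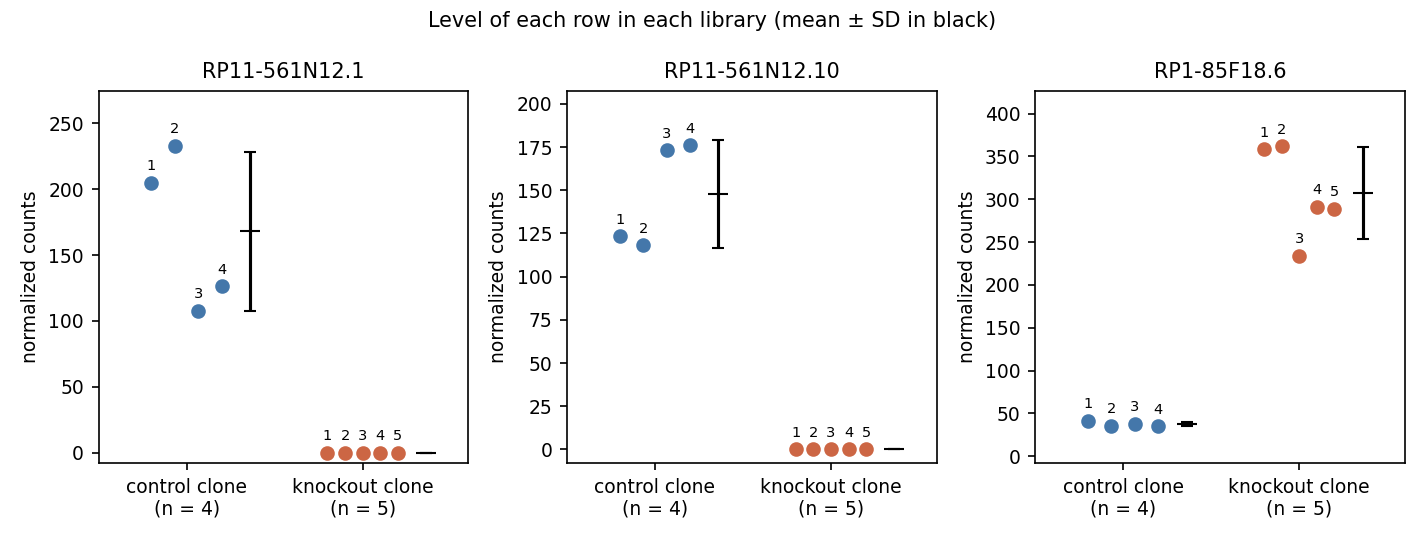
Normalized counts of RP11-561N12.1, RP11-561N12.10 and RP1-85F18.6 (vertical axes, linear and different in each panel) in each library, numbered by replicate, for the control clone (blue) and the knockout clone (orange), with mean and SD in black. RP11-561N12.1 and RP11-561N12.10 are at 0 in all 5 knockout libraries, and RP1-85F18.6 lies between 35.2 and 41.4 in the control and between 234.1 and 361.9 in the knockout libraries.

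Over the whole table, limma called 150 of 27777 tested rows at an adjusted p under 0.05, which is 0.54%. Of these, 32 were higher in the knockout clone (0.115% of tested rows) and 118 were lower (0.425%). Control and knockout libraries did not overlap in 1096 rows, or 3.95%. All 3 members were among those rows, which follows from how they were chosen and is read no further. With the replicate number as a block the count over all rows was 43, with DESeq2 593, and without control library 1, 2 or 3 or knockout library 2, 4 or 5 it was 79 to 95.

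**Figure D2:**
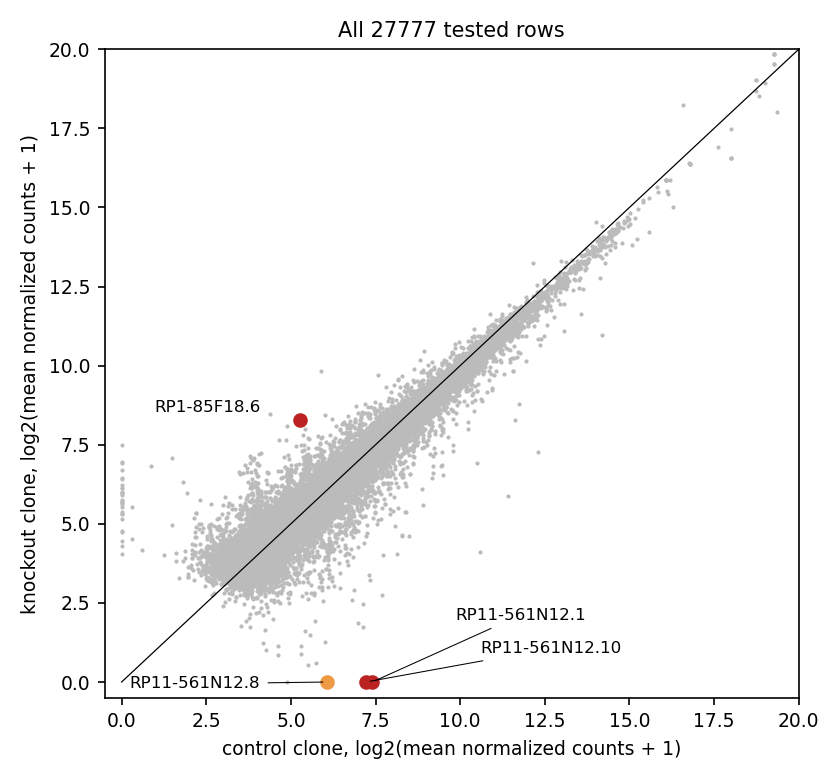
Mean level of each of the 27777 tested rows in the control clone (horizontal axis) and the knockout clone (vertical axis), both as log2(mean normalized counts + 1), with the line of equal levels. RP11-561N12.1 and RP11-561N12.10 (red) and RP11-561N12.8 (orange) lie at 0 on the vertical axis, and RP1-85F18.6 (red) lies above the line, at means of 37.7 and 307 normalized counts.

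The name RP11-561N12 is also carried by 4 further rows, which the rule that chose the members did not use. RP11-561N12.8 is a processed pseudogene at chr7:64590599-64591133 on the minus strand, 7.4 kb from RP11-561N12.1, and resembles BNIP3, which encodes a mitochondrial protein of cell death and mitophagy. Its levels were 73.31, 43.5, 21.88 and 125.5 normalized counts in control libraries 1 to 4 and 0 in all 5 knockout libraries. Control library 4 was the highest and library 3 the lowest. With a control mean of 66.1 ± 44.9 (SD, n = 4), it was at least 116-fold lower in the knockout clone, or at least 81.4-fold without control library 4. Limma called it (log2 difference -5.80, SE 0.60, adjusted p = 0.0028). With the replicate number as a block its adjusted p was 0.067.

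RP11-561N12.5 is a processed pseudogene at chr7:64569428-64570437 on the minus strand, 97.2% identical to IGLON5, which encodes a cell adhesion protein. Its levels were 12.75, 15.54, 21.88 and 23.48 normalized counts in the control libraries and 2.874, 1.127, 1.164, 0 and 0 in the knockout libraries, from 72 and 5 reads in all. The groups did not overlap, but limma did not call the row (log2 difference -3.41, SE 0.64, adjusted p = 0.059). The call depended on the tool, since edgeR gave an adjusted p of 0.044 and DESeq2 0.00029. The authors' deposited table lists an adjusted p of 2.7e-05 for it. Of its words of 31 bases, 42.6% also occurred in IGLON5.

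RP11-561N12.6 and RP11-561N12.9 had too few reads to be tested. RP11-561N12.6 is a processed pseudogene with 2 exons at chr7:64566814-64567443 on the minus strand, and its best coding match was PAGE4, of a cancer and testis antigen family, at 81.4% identity. It had 5.313, 6.215, 0 and 17.16 normalized counts in the control libraries, from 28 reads, and 0 in all knockout libraries, at least 12.6-fold lower, or at least 6.76-fold without control library 4. The lncRNA RP11-561N12.9, without a position in the annotation used, had 4.25, 1.554, 2.735 and 4.516 in the control libraries, from 13 reads, and 0 in all knockout libraries, at least 5.74-fold lower. Without control library 4 that limit was 5.01-fold. Summed over these 4 rows, control libraries 1 to 4 had 90, 43, 51 and 189 reads and knockout libraries 1 to 5 had 3, 1, 1, 0 and 0. RP1-85F18.6 was the only row with the name RP1-85F18.

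The 4 positioned RP11-561N12 rows, pseudogenes whose best coding matches were 4 different genes, together spanned 24.3 kb of chromosome 7. ZNF680, which encodes a zinc finger protein, lies on the minus strand, and the end where its transcription starts is 3.7 kb before the first of them. ZNF107, another zinc finger gene, on the plus strand, starts 75 kb after the last. ZNF680 had 978.6, 902.7, 742 and 792.1 normalized counts in the control libraries and 544.1, 655.1, 586.9, 611.4 and 586 in the knockout libraries. The groups did not overlap, with means of 854 ± 107 (SD, n = 4) and 597 ± 40.6 (SD, n = 5), but the difference did not pass the limma test (log2 difference -0.51, SE 0.13, adjusted p = 0.17). DESeq2 gave an adjusted p of 0.024 for ZNF680, and the authors' deposited table lists 0.0015. ZNF107 had means of 492 ± 76.2 and 410 ± 68.8 normalized counts, with overlapping libraries and an adjusted p of 0.72 in limma. BNIP3P42, a BNIP3 pseudogene inside the span of ZNF680, had means of 43.3 ± 19.2 and 34.7 ± 10.1 normalized counts (log2 difference -0.26, SE 0.34, limma adjusted p = 0.85).

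**Figure D3:**
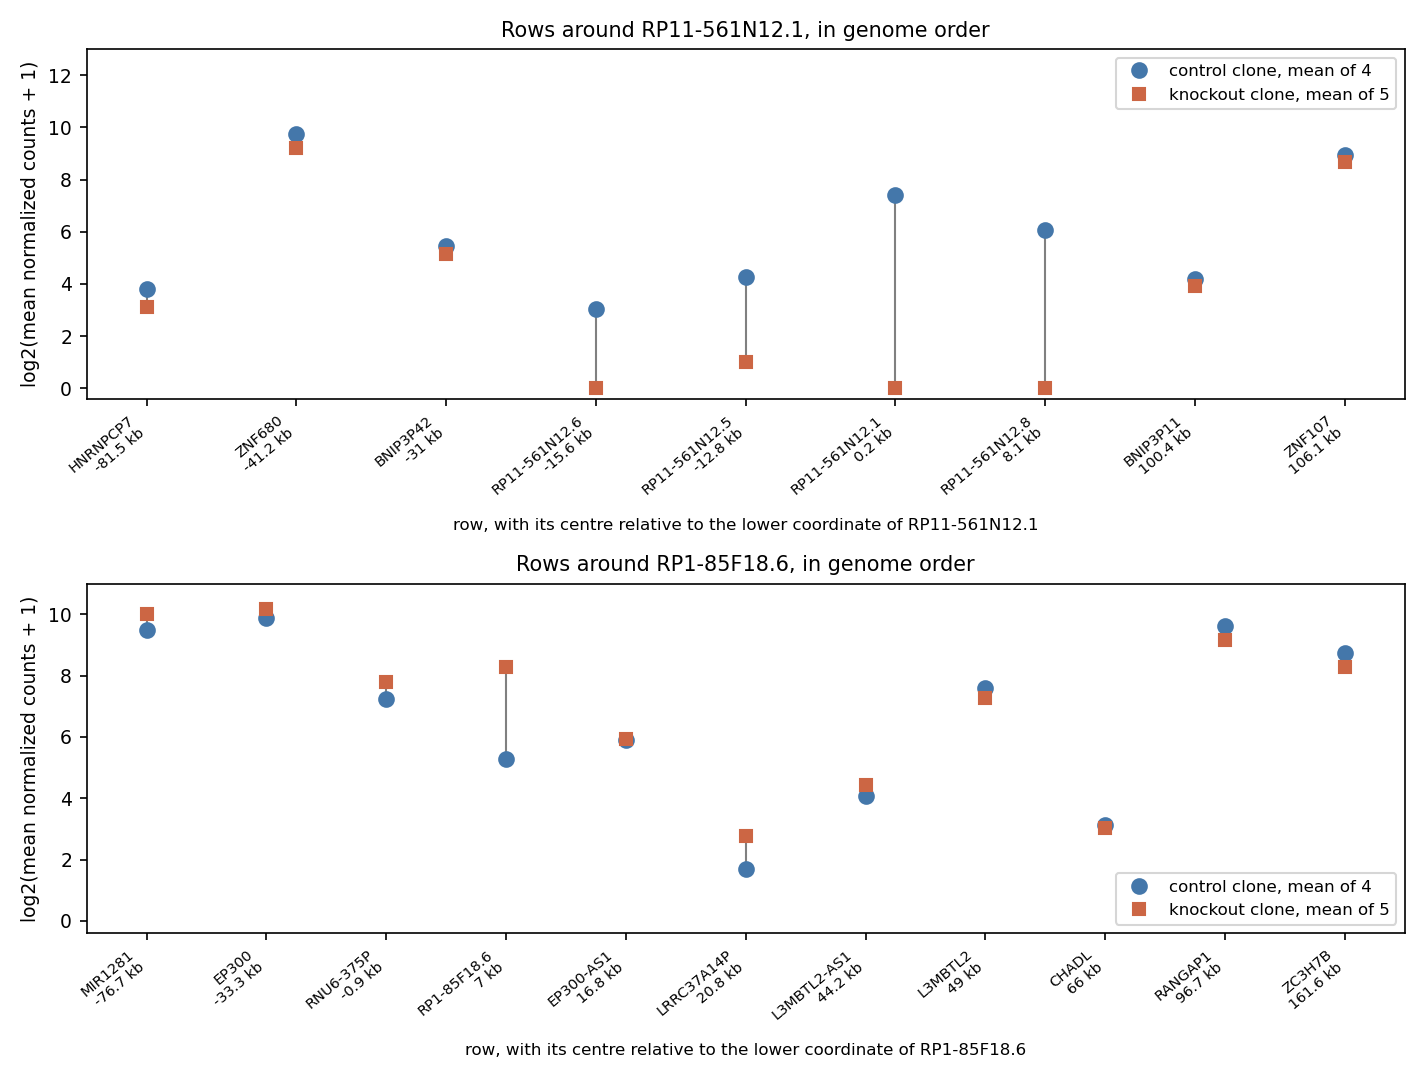
Mean level of each row within 150 kb of RP11-561N12.1 (top) and of RP1-85F18.6 (bottom) whose mean was at least 5 normalized counts in a clone, in genome order, as log2(mean normalized counts + 1), for the control clone (blue circles) and the knockout clone (orange squares). On chromosome 7 the 4 RP11-561N12 rows stand at or near 0 in the knockout clone between ZNF680 and ZNF107, and on chromosome 22 RP1-85F18.6 stands at 37.7 and 307 while EP300 stands at 935 and 1162 normalized counts.

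At the locus of RP1-85F18.6 the overlapping genes did not pass the test. EP300 had 843.6, 797, 1014 and 1087 normalized counts in the control libraries and 1213, 984.3, 1005, 1356 and 1252 in the knockout libraries, and the groups overlapped. Its means were 935 ± 137 (SD, n = 4) and 1162 ± 162 (SD, n = 5), with a log2 difference of 0.31 (SE 0.16, limma adjusted p = 0.64). RP1-85F18.6 reached 4.91%, 4.48%, 3.78% and 3.24% of the EP300 level in control libraries 1 to 4 and 29.5%, 36.8%, 23.3%, 21.5% and 23.1% in knockout libraries 1 to 5, on normalized counts not divided by length. EP300-AS1, another antisense RNA of EP300 on the same strand as RP1-85F18.6, had means of 58.7 ± 17.8 and 60.1 ± 13.5 normalized counts (log2 difference 0.05, SE 0.27, limma adjusted p = 0.96). The sign of the EP300-AS1 difference turned with quantile normalization, to -0.02. RP1-85F18.6 shared no word of 31 bases with EP300-AS1.

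The coding genes beyond EP300 also did not pass. L3MBTL2, which encodes a Polycomb-group protein, starts 22.1 kb after RP1-85F18.6, with means of 193 ± 60.1 and 152 ± 17.5 normalized counts (log2 difference -0.30, SE 0.22, limma adjusted p = 0.77). RBX1, a ubiquitin ligase subunit and the nearest coding gene on the other side that does not overlap, lies at -195.9 kb (lower coordinates) and had 872 ± 300 and 848 ± 247 normalized counts (limma adjusted p = 0.98).

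Within 500 kb of the 2 loci, members left out, 50 of 94 rows were tested and 1 was called, RP11-561N12.8, beside 0.54% over all rows. Around RP1-85F18.6, limma called 0 of 32 tested rows, with 0 at an unadjusted p under 0.05 and a median log2 difference of -0.08. Around RP11-561N12.1 it called 1 of 18, with 3 at an unadjusted p under 0.05 and a median of -0.23. The libraries did not overlap in 4 of those 18 rows (22.2%, beside 3.95% over all tested rows), which were RP11-561N12.8, RP11-561N12.5, ZNF680 and VN1R42P, a vomeronasal receptor pseudogene 350.1 kb away with means of 48.2 ± 1.17 and 65.1 ± 13.7 normalized counts. Without the RP11-561N12 rows, a count added after seeing the data, 0 of 48 neighbours were called by limma, with 1 at an unadjusted p under 0.05. The count of 1 became 0 with the replicate block, 2 with edgeR and 3 with DESeq2.

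**Figure D4:**
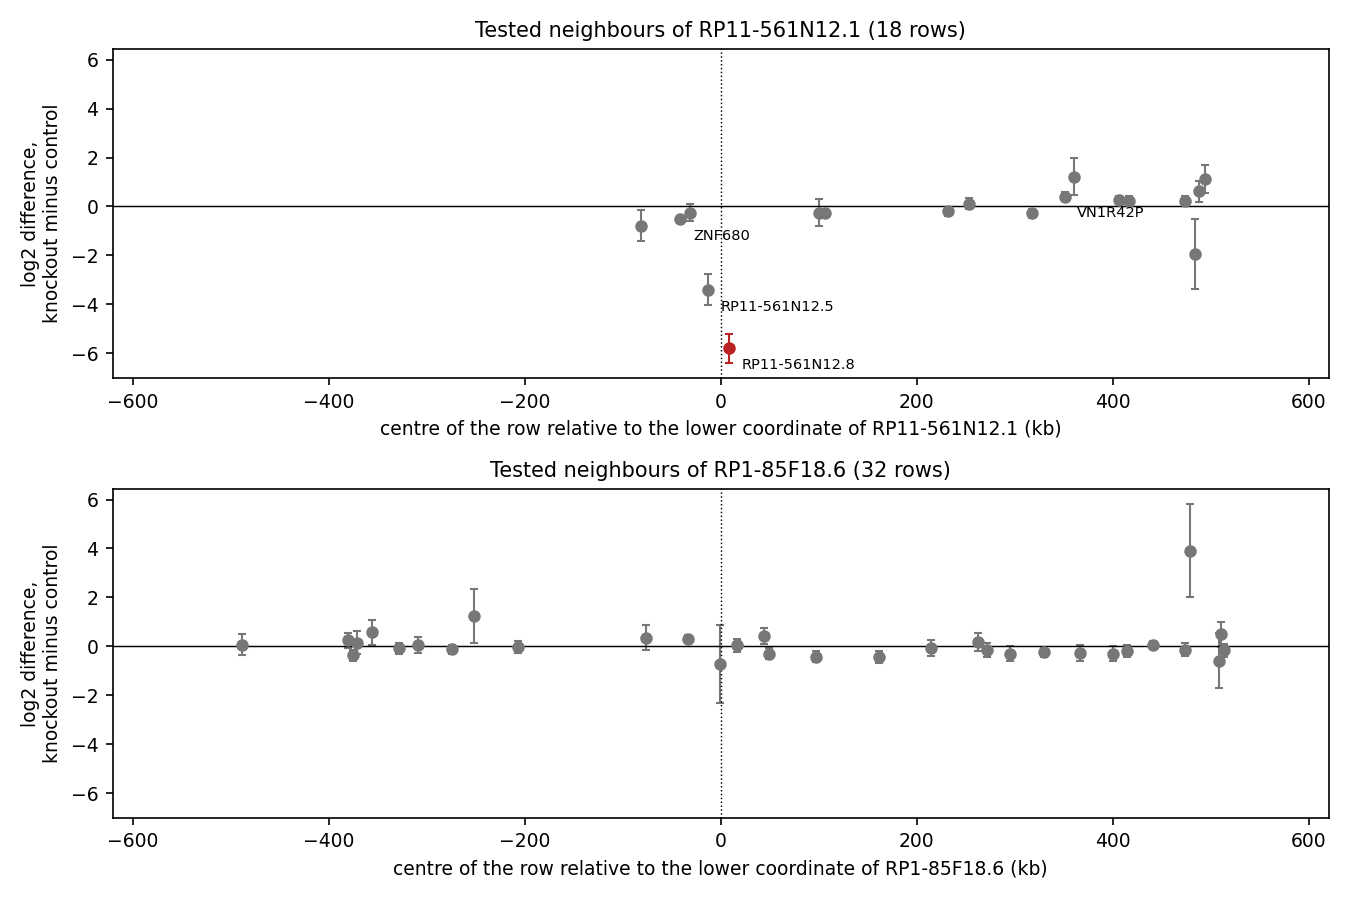
Log2 difference (knockout minus control clone) of each tested row within 500 kb of RP11-561N12.1 (top, 18 rows) and RP1-85F18.6 (bottom, 32 rows) against the distance of its centre from the member's lower coordinate in kb, with bars of 1 SE. The called row is red, rows whose libraries did not overlap are named, and RP11-561N12.8 and RP11-561N12.5 stand at -5.80 and -3.41.

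The tested parents and copies of RP11-561N12.1, and the parents of its neighbours, did not pass the test. GCSH had means of 2176 ± 822 (SD, n = 4) and 1919 ± 435 (SD, n = 5) normalized counts (log2 difference -0.14, SE 0.26, limma adjusted p = 0.89), and its sign turned with library total scaling, to 0.02, and with quantile normalization, to 0.07. Of 17 annotated copies or parents of RP11-561N12.1 in the table, 6 were tested and limma called 0, beside 0.54% over all tested rows, with 1 at an unadjusted p under 0.05. GCSHP5, a GCSH pseudogene 92.7% identical to RP11-561N12.1, had means of 222 ± 159 and 103 ± 73.5 normalized counts (log2 difference -1.24, SE 0.72, limma adjusted p = 0.69). IGLON5 had means of 239 ± 72.1 and 220 ± 41.8, with a limma adjusted p of 0.92. BNIP3 had means of 2096 ± 549 and 2348 ± 509, with a limma adjusted p of 0.84. PAGE4 was not tested, at means of 4.545 and 4.158 normalized counts.

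Rows named, like the members, for a sequencing clone and a number are mostly lncRNAs and pseudogenes without a symbol of their own. Of 18693 such rows other than the members, 6213 were tested and 17 called (0.274%, beside 0.54% over all rows), 2 higher and 15 lower in the knockout clone. Their median log2 difference was 0.23, above 0, while that of all tested rows was 0.01. The 2 that rose, named here after their values were seen, were RP11-210N13.1, a pseudogene on chromosome 12 with means of 1.81 ± 3.61 and 134 ± 31.4 normalized counts (limma adjusted p = 0.0022), and RP11-475I24.9, a pseudogene on chromosome 9 that was at 0 in the control clone and at 18.57 ± 7.43 in the knockout clone (limma adjusted p = 0.0094, and 0.13 with the replicate block). Among the 15 that fell was RP11-561N12.8. With the members left out, 5 of 1708 tested processed pseudogenes were called (0.293%) and 31 of 6923 tested lncRNAs (0.448%), beside the same 0.54%. The median log2 differences of these 2 types, which share rows with the clone-named set, were also above 0, at 0.36 and 0.19. The count of 17 was 76 with DESeq2, 24 higher and 52 lower, and 7 with the replicate block. It was 7 without knockout library 5, 8 without knockout library 4, 9 without knockout library 2, control library 1 or control library 2, and 11 without control library 3.

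Unstable noncoding transcripts are removed in the nucleus by the RNA exosome and its cofactors, so the genes of that machinery were listed beside the members. All 34 were tested, and limma called 0, beside 0.54% over all tested rows, a share at which a list of this size need hold no called gene. Their log2 differences ran from -0.48 to 0.45 with a median of -0.05. The exonuclease gene XRN1, named here after its value was seen, had the highest, 0.45, and was the 1 with an unadjusted p under 0.05 (limma adjusted p = 0.57). EdgeR and DESeq2 also called 0 of the 34.

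Rows with the pattern most like each member were found by Pearson's r of log2(value + 1) over the 9 libraries, among 16115 tested rows with a symbol and a mean of at least 50. These correlations rest on the split between the clones, which the members were chosen for, and are given as a description. Closest to RP11-561N12.1 were MIR764, a microRNA gene on chromosome X (r = 0.995), RP11-561N12.10 (0.991), the zinc finger genes ZNF717 (0.984) and ZNF667 (0.977) and the amino acid transporter gene SLC38A4 (0.977). In the control clone MIR764 had a mean of 166 ± 86.8 normalized counts (SD, n = 4), and all 5 knockout libraries were at 0. RP11-561N12.10 was closest to ZNF717 (r = 0.992), RP11-561N12.1 (0.991), SLC38A4 (0.981), MIR764 (0.981) and PIWIL2 (0.98), which encodes a PIWI protein of the germline. ZNF717 had means of 206 ± 36.1 and 5.76 ± 1.76, and PIWIL2 of 111 ± 33 and 4.98 ± 2.04 normalized counts.

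The rows closest to RP1-85F18.6 were high in the knockout clone. They were CAT, the gene of catalase (r = 0.985), RNY4P24, a pseudogene of a Y RNA (0.98), CTSF, which encodes the lysosomal protease cathepsin F (0.979), DNAJC15, which encodes a mitochondrial co-chaperone (0.971), and the zinc finger gene ZNF280D (0.966). CAT had means of 110 ± 9.6 (SD, n = 4) and 277 ± 16.1 (SD, n = 5) normalized counts, CTSF 12.9 ± 3.26 and 122 ± 40.9, and DNAJC15 0.84 ± 0.975 and 112 ± 20.8. RNY4P24 had no reads in the 4 control libraries and a mean of 180 ± 85.6 in the knockout libraries. The change in ZNF280D was smaller, from 251 ± 23 to 384 ± 22.1 normalized counts. None of these 5 rows lies on chromosome 22.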

How the data were processed

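The 9 H1 libraries were rRNA-depleted and made with a stranded kit for total RNA, per the labels. The authors used fastp, kallisto and DESeq2 with hg38, per the submitters' processing notes, and the sources used here give no versions, annotation release or strand setting. Per library, 1 signal column of the deposited table holds normalized counts, meaning the authors' gene counts over that library's size factor, and reads were recovered by division (100% of values whole within 1e-06). The recovered reads summed to 19838682 to 31192630 per library, a total of counts assigned to genes and not of reads sequenced. How reads shared between genes were assigned is part of these counts. The counting errors and floors given here leave that uncertainty out. The authors' log2 fold changes and adjusted p-values stand in the same deposited table and are named where used.

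Where the plan allowed edgeR for raw counts, the values were normalized, so the test was limma 3.58.1 in R 4.3.3 (trend option, log2(value + 1), clone as the only term) on 27777 rows kept by filterByExpr (minimum count 10), with Benjamini-Hochberg adjustment over these rows and a threshold of 0.05. Fold changes on this scale understate those of low rows. Alternatives were edgeR 4.0.16 and DESeq2 1.42.0 on the recovered reads, other scalings, pseudocounts, windows and filters, libraries left out in turn, and the replicate number as a block. The labels file that number under a batch tag, so the blocked fit was run as a paired alternative to the fit without it, and same-numbered libraries deviated from their clone means with correlations of 0.06, 0.01, 0.28 and 0.36 (replicates 1 to 4). Knockout library 5 has no partner and adds nothing to the blocked difference. For a group at 0 reads, folds used a floor of 3 reads in that group and the observed mean of the other group. The fit was tested on simulated data.

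Positions and transcripts came from GENCODE 29 (GRCh38), matched by ID without the version for 58337 rows. Copies were found with blastn 2.17.0. The members and lists were chosen with earlier results of these data known. Named by rule were the members, rows of their sequencing clones, overlapping and nearest coding genes, called neighbours within 500 kb, the 5 rows most like each member and up to 4 called RNA decay genes. Parents and copies, and neighbours whose libraries did not overlap, were added after their values were seen.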

Additional observations from a re-analysis of the deposited data

How the results depend on the processing

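RP1-85F18.6 kept its log2 difference between 2.85 and 3.14 under all 16 alternatives run. The fitted differences of RP11-561N12.1 and RP11-561N12.10, whose knockout libraries are at 0, depend on the added count and are no bound. They were -7.33 and -7.19 in limma, -8.32 and -8.19 with a pseudocount of 0.5, -5.04 and -4.91 with 5, -10.42 and -10.22 in edgeR and -9.92 and -9.74 in DESeq2. Over all rows the 150 calls became 593 with DESeq2, 77 with library total scaling, which moves the median of all rows from 0.01 to 0.17, and 43 with the replicate block, and leaving out a library gave 79 to 186. The 17 clone-named calls became 76 with DESeq2 (24 higher), 11 with library total scaling, 26 without the filter and 7 with the replicate block (3 higher), and 7 to 23 with a library left out. Leaving out control library 1, 2 or 3 or knockout library 2, 4 or 5 lowered both counts by over 1.5 times, to 93, 80, 94, 95, 79 and 80 over all rows and 9, 9, 11, 9, 8 and 7 of the clone-named rows. The 1 called neighbour became 3 with DESeq2, 2 with edgeR, 2 without the filter, 2 with a pseudocount of 5, 0 with the replicate block and 0 without the RP11-561N12 rows, the last added after seeing the data. RP11-561N12.8 was called in all 9 fits with a library left out (highest adjusted p in limma 0.024). RP11-561N12.5 was called in 0 of those 9, and its adjusted p over all alternatives ran from 0.00029 to 0.25. Differences near 0 changed sign: EP300-AS1 was -0.02 with quantile normalization and -0.12 to 0.2 with a library left out, and GCSH was 0.02 with library total scaling, 0.07 with quantile normalization and -0.3 to 0.09 with a library left out. The count of 0 RNA decay genes held under every alternative run. Among the rows named as called, the block ended the calls of RP11-561N12.8 and RP11-475I24.9 (adjusted p = 0.13 in limma) and kept that of RP11-210N13.1 (0.039) and those of both called rows of the knocked-out element. The causes were not tested. With 143 reads of RP1-85F18.6 in the control clone, variation between its libraries is limited by counting.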

Other observations

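Rows that were at 0 in every library of 1 clone and well covered in the other were few. Where the other clone had a mean of 50 normalized counts or more and reads in each library, 4 rows had no reads in the knockout clone, RP11-561N12.1, RP11-561N12.10, RP11-561N12.8 and MIR764. The reverse held for 4 rows, all small RNA pseudogenes: RNA5SP425 (59.4 ± 13.8 normalized counts in the knockout clone), RNA5SP474 (50.1 ± 8.43), RNU4-21P (83.7 ± 26.3) and RNY4P24 (180 ± 85.6). With at least 20 reads in place of the mean, the counts were 15 and 11, and the same 3 RP11-561N12 rows were among the 15, 2 of them members chosen for their absence there. Of the 13 with a position among the 15, 4 had another such row within 50 kb, the pair RP11-561N12.1 and RP11-561N12.8 and the pair RN7SL489P and RN7SL327P, pseudogenes of 7SL RNA with 24 reads each. RN7SL853P and RN7SL429P, also among the 15, had the same 24 reads and the same control mean of 6.256 normalized counts as that pair. Whether these RN7SL rows hold the same reads was not tested, so they may not be separate cases. Of the 11 rows missing from the control clone, none had another within 50 kb. These rows were picked by their values, and no test was made of them.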
